A study of Drosophila melanogaster with 15 samples.

Results

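Transcript levels of tubulin genes were followed across 15 arrays of Drosophila melanogaster embryos. The genes considered were 8 in number: alphaTub67C, alphaTub84B, alphaTub84D, alphaTub85E, betaTub56D, betaTub60D, gammaTub37C and gammaTub23C. Members were the probe sets that the platform annotation pairs with exactly 1 of these symbols. Of the 8 genes 6 had such a probe set, 1 each, among 18952 probe sets on the array. No probe set was assigned in this way to alphaTub84B or gammaTub23C, which were not analysed here. The embryos carried the white-eye allele w[1118], had been kept at 23 °C and were 3-4 hours old when frozen. Control embryos received 0 µGy and irradiated embryos 500 µGy of gamma rays at 22.4 mGy/h, given 5, 30, 60 or 90 min before freezing. Each of the 5 groups held 3 samples of pooled embryos, lettered A, B and C, which the design text calls biological replicates. Since all were frozen at the same age, the 90 min embryos were irradiated youngest, and elapsed time cannot be told apart from the age at exposure.

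Microtubules are built from dimers of an alpha- and a beta-tubulin, and new microtubules start from rings that contain gamma-tubulin. Drosophila has isoforms that the mother makes during oogenesis and loads into the egg, among them the alpha-tubulin alphaTub67C and the gamma-tubulin gammaTub37C, which serve meiosis and the rapid nuclear divisions before cells form. The alpha-tubulins alphaTub84B and alphaTub84D and the beta-tubulin betaTub56D are used broadly, and gammaTub23C is the gamma-tubulin of most later cells. The beta-tubulin betaTub60D and the alpha-tubulin alphaTub85E are known from restricted tissues, among them developing muscle and sensory organs. At the age studied, RNA supplied by the mother is being removed and replaced by transcripts of the embryo. In whole embryos fewer cells of a type and less RNA per cell cannot be told apart.

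The arrays differed by replicate letter far more than by treatment. A value is the intensity of a probe set, and log2 differences are on the scale log2(intensity + 1). Of 11261 probe sets above the intensity filter, 48.4% differed among the letters at an adjusted p under 0.05 (limma, group in the model). Between any irradiated group and control 0% differed, both without the letter in the model and with it as a block. With a block for the level of the hybridization spike-in controls, 703 probe sets differed among the letters in place of 5450. The number of arrays limits the precision, and so does the spread between letters. The median SD per probe set was 0.78 on the log2 scale with group alone in the model, and 0.55 with the letter as a block. The spike-in level split the arrays into a set of 7 at 11.63 or more and a set of 8 at 11.30 or less on the log2 scale. The higher set held all C arrays and 60 and 90 min B, and the lower set held all A arrays and the other B arrays. Letters A and C thus cannot be told apart from the spike-in set except through the B arrays. How far the drop to 703 came from the spike-in level or from lost precision was not tested. The log2 difference between 3′ and 5′ probe sets of GAPDH, a measure of RNA integrity, lay between 2.59 and 3.29 on all arrays. For actin it lay between 1.29 and 1.94. The 3′ signal was thus the higher on every array for both genes. All 6 tubulin probe sets passed the filter. They stood between the 66.9th and the 99.6th percentile of mean log2 intensity.

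The maternal isoforms alphaTub67C and gammaTub37C had their highest intensities on the same 3 arrays: control A, control C and 90 min B. For alphaTub67C the control arrays A, B and C read 3482, 343.02 and 3176. The irradiated arrays read 386.6, 204.2 and 533.2 after 5 min, 811.1, 106.8 and 414.02 after 30 min, 330.3, 237.2 and 477.6 after 60 min, and 623.5, 3546 and 546.4 after 90 min. Control B thus lay among the irradiated arrays, 90 min B lay with the other controls, and control and irradiated groups overlapped. The lowest of the 3 bright arrays was 3.92-fold above the brightest of the other 12. For gammaTub37C the controls A, B and C read 741.05, 137.2 and 506.3. The irradiated arrays read 120.5, 94.1 and 166.7 after 5 min, 222.4, 72.6 and 135.98 after 30 min, 141.6, 117.7 and 118.9 after 60 min, and 184.3, 617.5 and 126.8 after 90 min. The groups overlapped in the same way, and the gap between the 3 bright arrays and the rest was 2.28-fold.

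**Figure D1:**
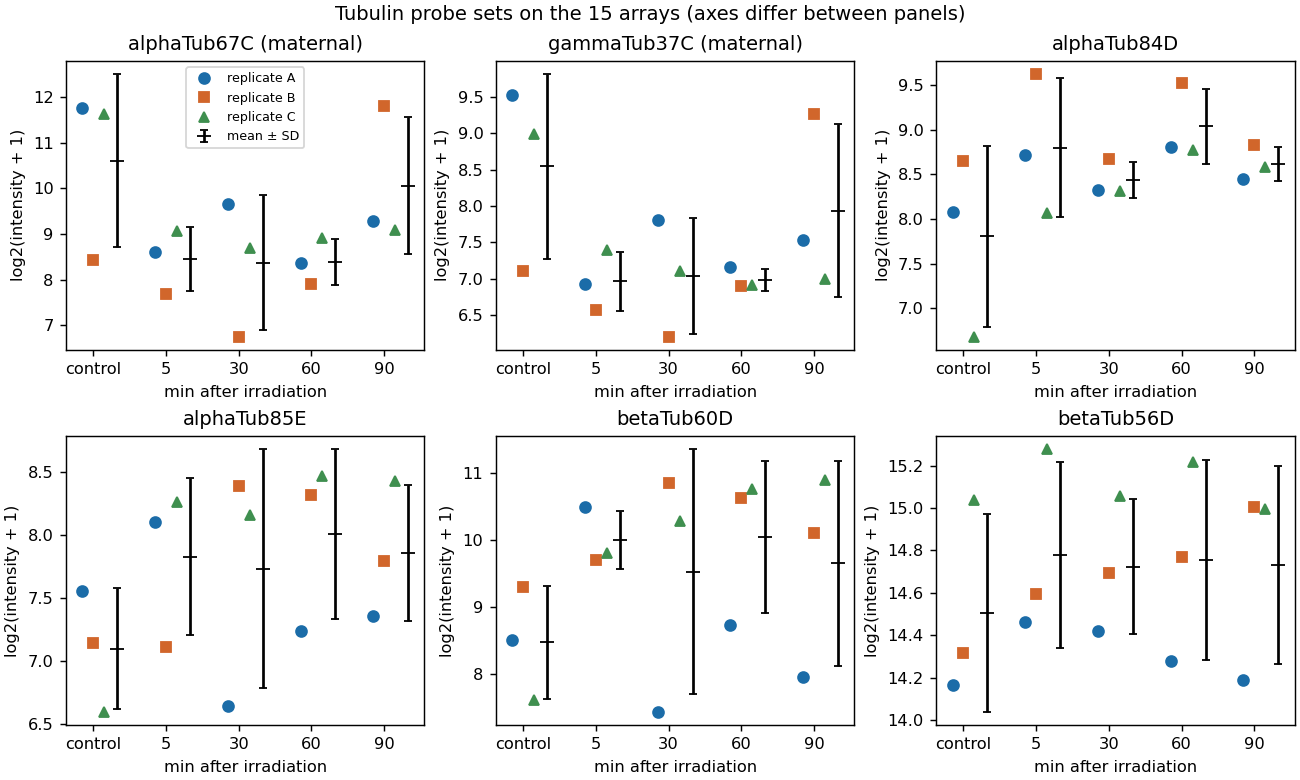
Level of each tubulin probe set on every array as log2(intensity + 1), by time after irradiation, with symbols for replicate letters A, B and C and the group mean ± SD (n = 3); axes differ between panels. The maternal isoforms alphaTub67C and gammaTub37C are bright on control A, control C and 90 min B, whereas betaTub56D is ordered by letter.

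The 3 bright arrays did not share a letter or a spike-in set. Control A belonged to the lower spike-in set, and control C and 90 min B to the higher one. Their GAPDH 3′ minus 5′ differences were 3.19, 3.10 and 3.09, within the range of the other arrays. Over all tested probe sets, these 3 arrays were the 3 highest for 3.34%, and for 0.364% with a gap of at least 1 on the log2 scale, which both maternal tubulins had (1.97 and 1.18). This set of arrays was singled out after the values were seen. Among 17 other maternal transcripts 6 had the same 3 arrays highest, against 3.86% of all genes: exu and swa, which act in localizing bicoid mRNA, BicC, an RNA-binding protein, mtrm, an oocyte regulator of Polo kinase, and png and gnu, which belong to the kinase complex of egg activation. The mean score of these 17 genes, centred per gene, was 1.35, 0.19 and 0.52 in controls A, B and C. It was 0.02 in 90 min B, against -0.57, -0.86 and -0.63 in the B arrays at 5, 30 and 60 min. The A arrays at 5, 30, 60 and 90 min all scored higher than 90 min B, at 0.28, 0.90, 0.38 and 0.74. Counted from the highest, 90 min B ranked 8 of 15 arrays. Past the threshold 64.7% of the 17 genes differed among letters (limma), against 51.5% of all genes. Of the 17 genes 16 were lower in irradiated than in control arrays by the estimated mean (median -0.80), against 46.9% of all genes (median 0.03), with a median of -0.48 without control A and -0.14 without control A, control C and 90 min B. Markers of pole cells, the germ cell precursors that inherit maternal RNA, were lower in 8 of 8 (median -0.81), and in 5 of 8 without control A (median -0.50) or without control B (median -1.01). Without control A, control C and 90 min B they were lower in 8 of 8 (median -0.59), with control B as the only control. Whether the maternal RNA content of these pools moved the tubulin values was not tested.

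The maternal isoforms followed each other on the remaining arrays too. With the 3 bright arrays set aside, the Pearson correlation of alphaTub67C and gammaTub37C over 12 arrays was 0.90 and the Spearman correlation 0.76. These points share their letters and the scaling of each array, and the correlation is given as a description. On those 12 arrays alphaTub67C ran from 106.8 to 811.1 and gammaTub37C from 72.6 to 222.4. Both were lowest in 30 min B and highest in 30 min A, so that arrays of the same time stood at the ends of the range. These 2 arrays also stood far apart in marker scores. Genes expressed at cellularization scored -2.09 in 30 min B (rank 15 from the highest) and 0.77 in 30 min A (rank 2). Markers of neurons and sensory organs ranked them 1 and 14. Whether this bears on the tubulin values was not tested.

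**Figure D2:**
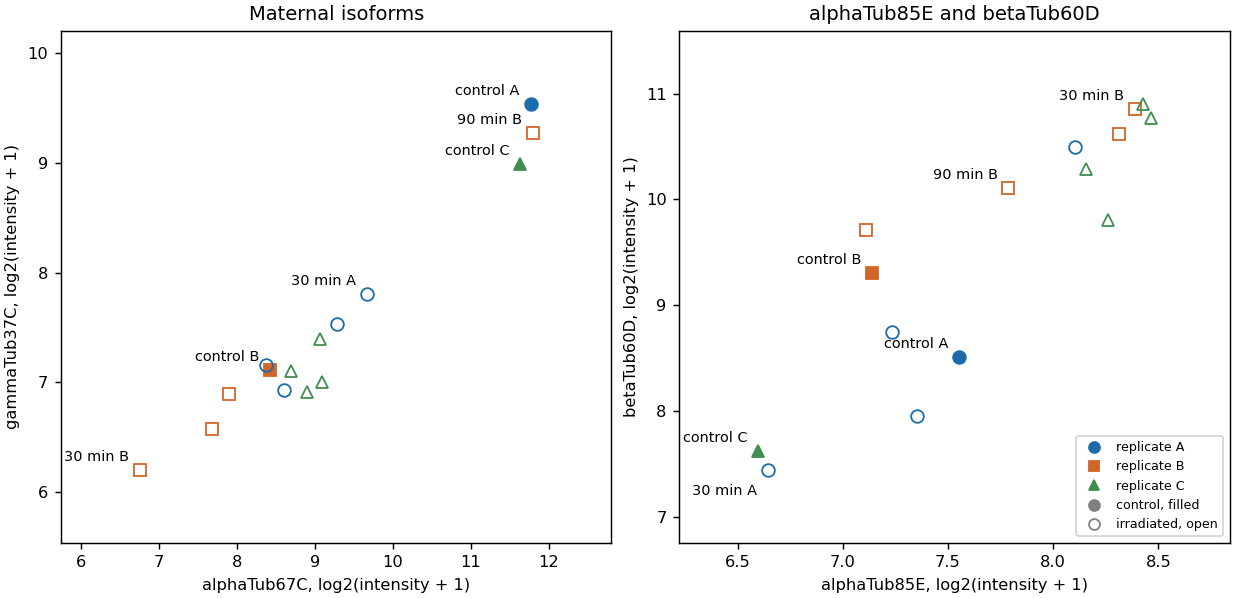
Left, gammaTub37C against alphaTub67C; right, betaTub60D against alphaTub85E, each as log2(intensity + 1) on 15 arrays, filled for control and open for irradiated, with symbols for the letters. Control A, control C and 90 min B stand apart at the upper right of the left panel, and control C and 30 min A lie lowest in the right panel.

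Relative to control, alphaTub67C was lower by limma's estimate at every time, and no difference passed the adjusted threshold. Its mean log2 level was 10.61 ± 1.89 (SD, n = 3) in control. After 5, 30, 60 and 90 min it was 8.45 ± 0.70, 8.37 ± 1.48, 8.39 ± 0.50 and 10.06 ± 1.50. From the highest to the lowest level the order was control, 90 min, 5 min, 60 min and 30 min. Neighbours in this order overlapped in their arrays, except 90 min with its lowest at 546.4 and 5 min with its highest at 533.2. The log2 differences from control were -2.16 ± 0.96 (SE), -2.24 ± 0.96, -2.22 ± 0.96 and -0.55 ± 0.96 at 5, 30, 60 and 90 min. In the mean of the irradiated groups the difference was -1.79 ± 0.76 (95% interval -3.42 to -0.16, adjusted p = 0.978). The slope over the irradiated times was 1.05 ± 0.64 per 60 min and did not pass limma's adjusted threshold either.

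For gammaTub37C the log2 level was 8.54 ± 1.27 in control (SD, n = 3). After 5, 30, 60 and 90 min it was 6.96 ± 0.41, 7.03 ± 0.80, 6.98 ± 0.15 and 7.93 ± 1.19. Control was highest, followed by 90, 30, 60 and 5 min, and all neighbours overlapped. The differences from control were -1.58, -1.51, -1.56 and -0.61 at 5, 30, 60 and 90 min, each ± 0.69 (SE). The 90 min value was -0.11, -1.33 and -0.39 without control A, B or C, -1.28 without 90 min B and -0.14 without 90 min C. In the mean of the irradiated groups the difference was -1.32 ± 0.54 (95% interval -2.48 to -0.15, limma's adjusted p = 0.978). In this contrast 0% of the probe sets tested passed, and 46.1% lay on the lower side. The unadjusted p of limma was under 0.05 for 3.59% of probe sets, among them alphaTub67C (0.0336), gammaTub37C (0.0296) and alphaTub84D (0.0387).

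Both differences rested on which control arrays were used. Without control B they grew to -2.88 for alphaTub67C and -2.03 for gammaTub37C, and without control A they were -1.21 and -0.82. The alphaTub67C difference at 90 min was 0.0285, -1.64 and -0.04 without control A, B or C, and -0.16, -1.42 and -0.07 without 90 min A, B or C. At 5 min it was -3.25 without control B, and at 30 min -1.43 without 30 min B. With control A, control C and 90 min B all left out, an alternative chosen after the values were seen, the differences were 0.17 and -0.05, with control B as the only control. Taken by letter, the 4 irradiated arrays differed from the control of their letter by -2.79, 0.10 and -2.69 for alphaTub67C in A, B and C, and by -2.18, 0.12 and -1.89 for gammaTub37C. Each maternal isoform was below its same-letter control on 11 of 12 irradiated arrays, as were at least that many for 6.02% of probe sets, and the exception was 90 min B both times. Neither differed among the letters past the threshold (limma, adjusted p = 0.369 and 0.615). Without 90 min B both did (adjusted p = 0.00178 for alphaTub67C and 0.0299 for gammaTub37C).

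**Figure D3:**
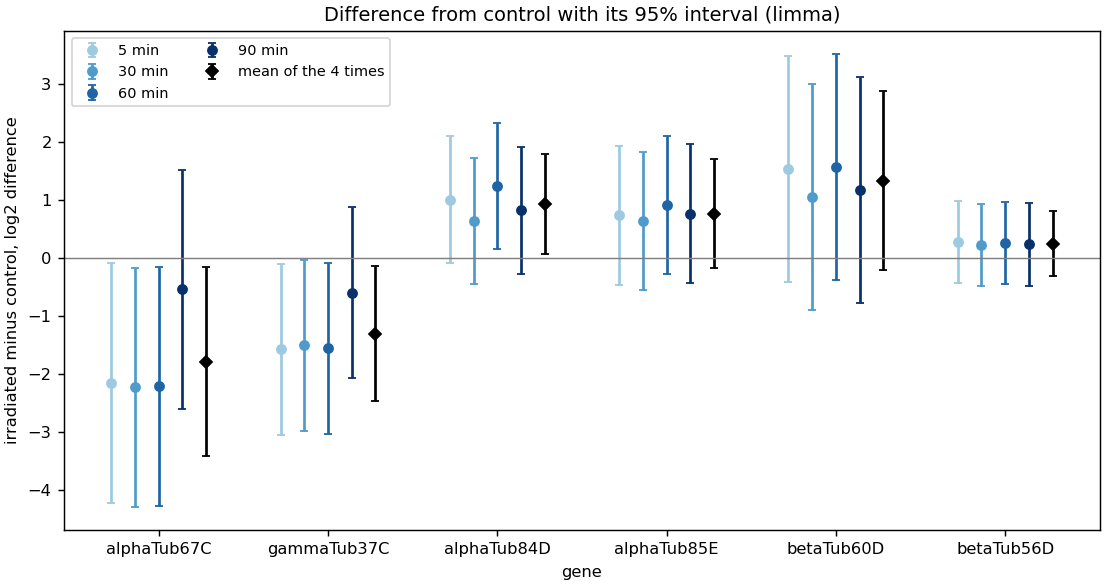
Log2 difference of each time from control, and of the mean of the 4 times (black), for each tubulin, with 95% intervals from limma (3 arrays a group, replicate letter not in the model). The mean differences of alphaTub67C (-1.79) and gammaTub37C (-1.32) lie below 0 and those of the other 4 isoforms above 0.

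The other alpha-tubulin probe set that could be named for a broadly used isoform, alphaTub84D, was higher in the irradiated arrays by estimate, on the side that held 53.9% of probe sets. Its identifier carries the suffix that Affymetrix gives to probes matching several transcripts, and alphaTub84B is a close paralog, so the signal cannot be assigned to alphaTub84D alone. Controls A, B and C read 269.4, 400.9 and 101.8. The irradiated arrays read 419.6, 786.9 and 266.6 after 5 min, 319.2, 406.9 and 316.4 after 30 min, 447.3, 734.9 and 438.03 after 60 min, and 348.2, 452.5 and 382.1 after 90 min. Control C was the lowest of all arrays, and within every letter each irradiated array was above its control, on 12 of 12 arrays in all. That held for 4.24% of probe sets. All 3 arrays at 60 min lay above all 3 controls, as did those of 4.28% of probe sets. The order of levels was 60, 5, 90 and 30 min and then control, with overlap between all neighbours.

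The log2 difference of alphaTub84D from control was 0.996, 0.63, 1.23 and 0.81 at 5, 30, 60 and 90 min, each ± 0.51 (SE). In the mean of the irradiated groups it was 0.92 ± 0.40 (95% interval 0.06 to 1.78, limma's adjusted p = 0.978). By letter the differences were 0.49, 0.51 and 1.75 in A, B and C. Without control C the mean difference was 0.36, and with control A, control C and 90 min B left out it was 0.05. The letters themselves differed for this probe set, with geometric mean intensities of 354.8, 532.2 and 270.2 in A, B and C (limma, adjusted p = 0.0258). That call was lost with quantile normalization (adjusted p = 0.0566), with a block for the spike-in set (0.134) and without any 1 of control B, control C, 5 min B, 5 min C or 60 min B (0.0503 to 0.0878).

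The maternal and the broadly used alpha-tubulin were set against each other within each array. The pair planned for this was alphaTub67C and alphaTub84B. As no probe set was named for alphaTub84B, alphaTub84D took its place after the annotation was seen, and gammaTub37C had no gamma-tubulin partner. Centred on the mean of the 15 arrays, the within-array log2 difference alphaTub67C minus alphaTub84D was 3.05, -0.86 and 4.31 in controls A, B and C. Over the irradiated arrays it ran from -2.58 in 5 min B to 2.33 in 90 min B, and the groups overlapped. The irradiated arrays were lower than the controls by a difference of -2.71, with p = 0.0308 in an exact two-sided permutation test over 455 choices of 3 control arrays. An exact permutation of the control within letters (125 choices) gave p = 0.032. The genes were chosen with earlier results of these data known, so these p-values are not independent evidence. Without control A the difference was -2.27 (exact permutation p = 0.132) and without control C it was -1.64 (p = 0.209), so neither passed. Without control B it was -4.22 (exact permutation p = 0.011, the smallest value that this test can give with a control left out). As a description, the mean of both maternal isoforms minus the mean of the other 4, centred over arrays, was 2.86, -0.30 and 3.11 in controls A, B and C and 1.89 in 90 min B. It ran from -2.39 to 1.31 in the other 11 arrays.

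**Figure D4:**
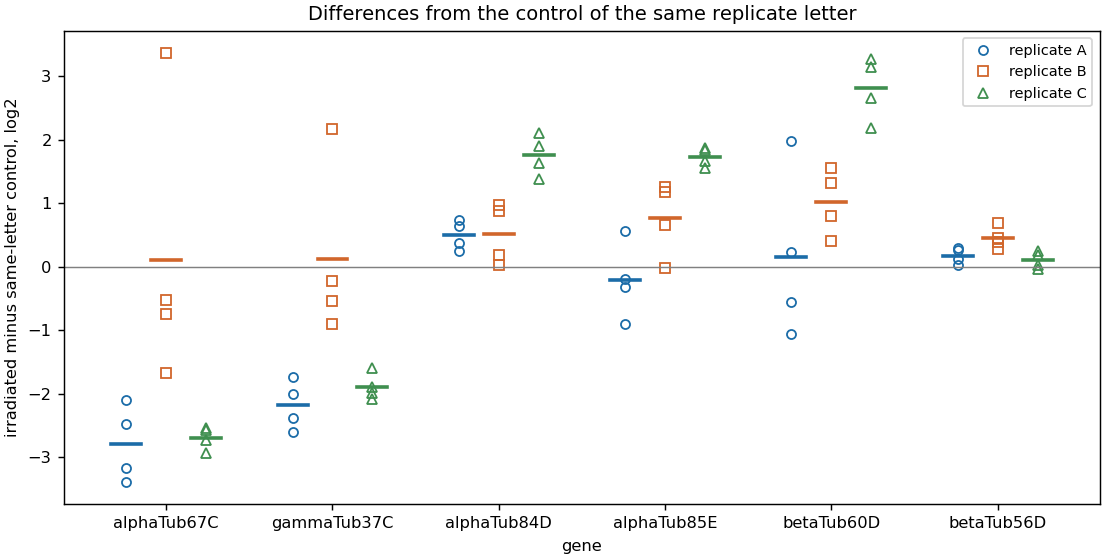
Log2 difference of each irradiated array from the control of its replicate letter, 4 arrays a letter, with the mean as a bar. For alphaTub67C the means are -2.79, 0.10 and -2.69 in A, B and C, and for betaTub60D 0.15, 1.02 and 2.81.

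The isoforms of restricted tissues, betaTub60D and alphaTub85E, varied together. For betaTub60D the controls A, B and C read 365.02, 631.6 and 196.4. The irradiated arrays read 1445, 835.4 and 891.7 after 5 min, 173.5, 1849 and 1246 after 30 min, 427.6, 1575 and 1741 after 60 min, and 247.2, 1102 and 1908 after 90 min. All 3 arrays at 5 min exceeded all controls, as did those of 5.32% of probe sets. At the other times the A array was low and overlapped the controls. For alphaTub85E the controls read 186.5, 139.97 and 95.8. The irradiated arrays read 274.02, 137.3 and 305.3 after 5 min, 99.1, 333.7 and 284.1 after 30 min, 149.3, 317.3 and 352.3 after 60 min, and 162.2, 219.9 and 343.1 after 90 min. The groups overlapped at every time, with low values in most A arrays and in 5 min B, and control C lowest of all.

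In the mean of the irradiated groups betaTub60D differed by 1.33 ± 0.72 (SE, 95% interval -0.21 to 2.87) and alphaTub85E by 0.76 ± 0.44 (-0.19 to 1.70), both with an adjusted p of 0.978 by limma. The betaTub60D levels stood in the order 60, 5, 90 and 30 min and control, and those of alphaTub85E in the order 60, 90, 5 and 30 min and control, with overlap between all neighbours. By letter, betaTub60D differed from control by 0.15, 1.02 and 2.81 in A, B and C, and alphaTub85E by -0.22, 0.76 and 1.73. With control A, control C and 90 min B left out, the betaTub60D difference was 0.45. The Pearson correlation of these isoforms was 0.89 over 15 arrays, and 0.88 over the 12 arrays without the 3 bright ones. Neither betaTub60D nor alphaTub85E differed among letters past the threshold (limma, adjusted p = 0.0812 and 0.415). With quantile normalization both did (0.0228 and 0.0410), as did betaTub60D without control A, control C or 5 min A (0.0158 to 0.0424).

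Markers of mesoderm and muscle were lowest on control C, which was also the lowest control for betaTub60D and alphaTub85E. Of 15 such markers 8 had a probe set that passed the filter. All 8 were higher in irradiated than in control arrays by the estimated mean, as were 4589 of all 8636 genes. They ran from Mlc2, a myosin light chain, at 0.05 to Him, a repressor of muscle differentiation, at 2.17 ± 0.75 (SE). Their median was 0.44, against 0.03 for all genes. None passed limma's test (adjusted p = 0.978 for Him), as was so for 0% of probe sets. The centred list score was -0.08, 0.40 and -1.80 in controls A, B and C, and ran from -0.78 to 1.58 in irradiated arrays. Hemocyte markers were lowest on control C as well, with a score of -1.68. On other arrays the match with betaTub60D was partial. Counted from the highest, 30 min B ranked 1 for the mesoderm list and 2 for betaTub60D, and 90 min B ranked 14 and 7. Without control C only 3 of the 8 were higher and the median turned to -0.14. Of 13 markers of neurons and sensory organs 11 passed the filter and 8 were higher (median 0.62), with scores of 0.25, 0.28 and -1.75 in controls A, B and C. Without control C 4 of the 11 were higher and the median turned to -0.09, so that both marker directions rested on that array. The part of these tissues in the tubulin values was not tested.

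The beta-tubulin betaTub56D was among the brightest probe sets and followed the replicate letter. Its identifier, too, carries the suffix for probes that match several transcripts. The A arrays read from 18373 to 22575, the B arrays from 20376 to 32901 and the C arrays from 32679 to 39701. The B arrays overlapped the A arrays at the low end, and the C arrays at the high end only through 90 min B. Letter C exceeded A by 0.81 ± 0.11 (SE, limma's adjusted p = 2.13e-04), as 20.8% of probe sets did past the threshold, and B exceeded A by 0.37 ± 0.11 (adjusted p = 0.0374, 7.4% of probe sets). Quantile normalization reduced the C to A difference to 0.30, which still passed (limma, adjusted p = 5.04e-04). With the spike-in set blocked it was 0.40 and did not pass (adjusted p = 0.430). In that fit letters A and C are told apart from the spike-in set only through the B arrays. The B to A call was lost with quantile normalization (0.14, adjusted p = 0.0755), the spike-in block (0.21, 0.200), no filter (0.37, 0.0667) and without 1 array in 9 of 15 cases (limma, highest adjusted p = 0.125).

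Against control, betaTub56D differed by 0.27, 0.22, 0.25 and 0.23 at 5, 30, 60 and 90 min, each ± 0.33 (SE). In the mean of the irradiated groups the difference was 0.24 ± 0.26 (95% interval -0.32 to 0.80, limma's adjusted p = 0.978). It was 0.02 with quantile normalization, 0.12 with the spike-in block, and 0.07, 0.15 and 0.51 without control A, B or C. Within letters it was 0.17, 0.45 and 0.10, and 11 of 12 irradiated arrays were above their same-letter control, as at least that many were for 11.1% of probe sets. The order of levels was 5, 60, 90 and 30 min and control, and all groups overlapped.

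The genes whose profiles over the 15 arrays were most like those of the tubulins differed between isoforms. For alphaTub67C they were Ork1, a potassium channel gene, Debcl, a Bcl-2 family gene, CG6927, CG8180 and CG4991, with Pearson correlations of 0.974 to 0.987. For gammaTub37C they were CG6927, hts, which encodes an adducin, CG7091, exu and Cyp6a19, a cytochrome P450 gene, at 0.950 to 0.958. All of these were highest on control A, control C and 90 min B, and their irradiated minus control differences lay between -1.94 and -1.18. Both traits follow largely from their choice by likeness to profiles that those arrays set apart. For betaTub56D they were Tctp, RpLP1, RpLP0 and RpL32, of which the last 3 encode ribosomal proteins, and Non2, at 0.985 to 0.992. For alphaTub84D they were croc, a forkhead gene, MED10, a Mediator subunit gene, CG5986, the homeobox gene hbn and the bHLH gene Max, at 0.937 to 0.955. For betaTub60D they were Orct, an organic cation transporter gene, Plod, which encodes a lysyl hydroxylase of collagen, CG8306, CG14107 and CG7646, at 0.956 to 0.970. For alphaTub85E they were Arpc3B, an Arp2/3 complex gene, CG13928, CG17121, fat-spondin and the beta-tubulin gene betaTub97EF, at 0.942 to 0.959. All these points share letter and array scaling, and the correlations are descriptions.

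Genes of other parts of the microtubule system were compared as a background to the tubulins. Of 79 genes in 7 lists with a probe set, 75 passed the filter, and 54 of them were lower after irradiation by the estimated mean, 72% against 46.9% of all 8636 genes. Their median difference was -0.27, against 0.03 for all genes. None passed limma's test, as was so for 0% of probe sets. Without control A the number lower was 43. Among letters 73.3% of them differed past the threshold, against 51.5% of all genes.

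All 6 genes of the gamma-tubulin ring complex, which nucleates microtubules, were lower by estimate, with a median of -0.61. The centred list score was 1.23, 0.48 and -0.12 in controls A, B and C, and ran from -0.87 to 1.01 in the irradiated arrays. The A arrays at 30, 60 and 90 min, at 1.01, 0.54 and 0.80, scored above controls B and C. Among letters 5 of the 6 genes (83.3%) differed past the threshold (limma), against 51.5% of all genes. The median was -0.21 without control A and -1.22 without control C, with 5 of 6 lower each time. The lowest were Grip128 at -1.31 ± 0.55 (SE) and Grip91 at -0.86 ± 0.90, and the highest Grip71 at -0.31 ± 0.45 and Grip75 at -0.27 ± 0.9996. Grip128 read 348.5 to 784 in the controls and 62.9 to 585.4 in the irradiated arrays, and was below its same-letter control on 12 of 12 arrays, as were 1.89% of probe sets. Over all 7 lists, 5 of 75 genes were below on 12 of 12 arrays, against 2.10% of all genes: Grip128, ana2, stai, Klp10A, a kinesin gene, and Dlic, a dynein chain gene. Map60 was above on 12 of 12, as were 4.12% of all genes. None of the 6 ring complex genes had control A, control C and 90 min B as its 3 highest arrays, against 3.86% of all genes, a share at which 0 of 6 says nothing particular about the complex.

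Among tubulin-folding genes and subunits of the CCT chaperonin, which folds tubulin, 11 of 13 were lower (median -0.30). At the ends stood Tbcc at -0.77 ± 0.71 (SE), CCT7 at -0.69 ± 0.32, mgr at 0.09 ± 0.50 and Tbce at 0.14 ± 0.24. The direction rested on control C, without which 6 of 13 were lower and the median was 0.13. Over the 7 lists 6 of 75 genes (8%) had control A, control C and 90 min B as their 3 highest arrays, against 3.86% of all genes: CCT6, CCT7, CCT8, spd-2, nod and DCTN1-p150. Of 8 centrosome and centriole genes 6 were lower (median -0.29), with the centriole duplication gene ana2 at -0.70 ± 0.56 and Plp at -0.47 ± 1.11 lowest, and Sas-4 at 0.07 ± 0.54 and the kinase gene SAK at 0.62 ± 0.42 highest. Without control A 2 of the 8 were lower and the median turned to 0.20, and without control C it was -0.77.

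Of 23 microtubule-associated and plus-end protein genes 16 were lower (median -0.12, and -0.25 without control C). The lowest were stai, the stathmin gene, at -1.11 ± 0.46 (SE) and msps at -0.74 ± 0.92, and the highest tau at 0.35 ± 0.93 and Map60 at 0.47 ± 0.25. The tau probe set was dim, with a geometric mean intensity of 25.4. Of 14 kinesin genes 9 were lower (median -0.13), from nod at -0.88 ± 0.56 and Klc at -0.76 ± 0.45 to neb at 0.14 ± 0.38 and cos at 0.25 ± 0.18. The kinesin median turned to 0.05 without control A and was -0.52 without control C. Of 8 dynein and dynactin genes 5 were lower (median -0.37), from nudE at -0.86 ± 1.33 and Dhc64C at -0.79 ± 0.65 to DCTN2-p50 at 0.25 ± 0.23 and robl at 0.33 ± 0.45. The dynein and dynactin median was -0.13 without control A and -0.61 without control C. Of 3 further tubulin genes that passed the filter, betaTub85D, the testis beta-tubulin, differed by -0.14 ± 0.67, betaTub65B by 0.22 ± 0.80 and betaTub97EF by 0.45 ± 0.36.

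**Figure D5:**
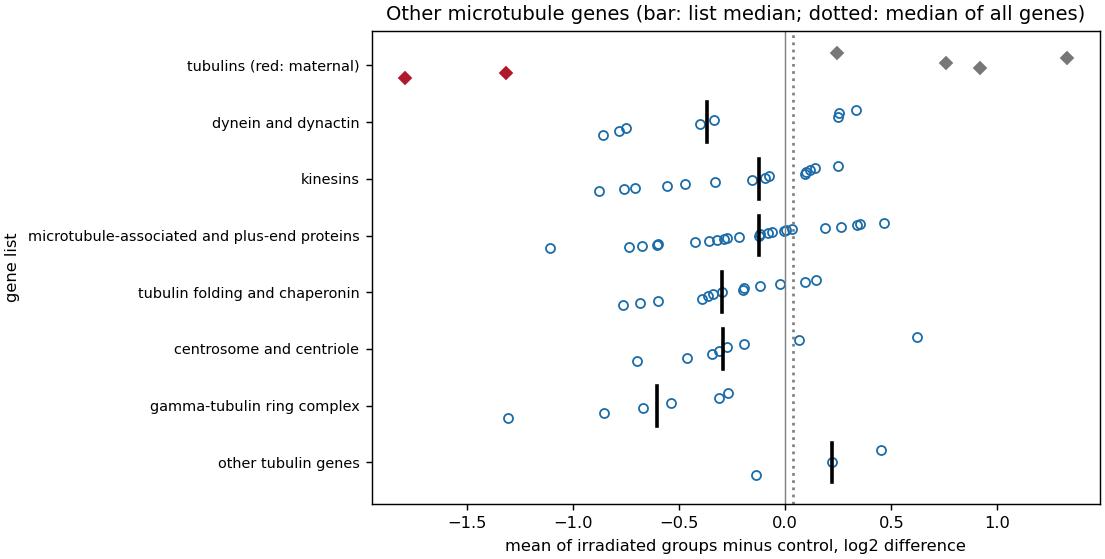
Log2 difference of the mean of irradiated groups from control for each gene of the 7 microtubule lists (circles, black bar at the list median) and for the tubulins (diamonds, red for the maternal isoforms), with the median of all genes dotted. The maternal isoforms lie at -1.79 and -1.32, and the ring complex genes between -1.31 and -0.27.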

How the data were processed

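The deposited values are intensity on a linear scale, which the authors summarised per probe set with MAS5, per the submitters' processing notes. The version and the scaling are not given in the sources used here. The mean intensity after trimming both ends was near 500.01 in every column, and this scaling was kept. Total RNA was copied from an oligo(dT) primer and hybridized to 1 array per sample, per the labels' protocols. No detection calls or scanner files were used.

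The platform annotation paired 13647 of 18952 probe sets with 1 symbol, 402 with several and 4903 with none, and genes were named from those with 1. Of these 13544 were matched by Entrez identifier to RefSeq (Release 6), which changed 0 symbols. No coordinates are given, since the files name no build, and no sequences were printed.

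Values were transformed as log2(intensity + 1). After removal of 183 control probe sets, the 11261 at or above the 40th percentile of mean log2 value were tested. The fit used limma 3.58.1 (R 4.3.3; lmFit, then eBayes with a trend) with 1 mean per group over the 15 arrays, two-sided, with Benjamini-Hochberg adjustment over all probe sets and a threshold of 0.05. Differences among letters came from the same model with group and letter as terms. Lists used 1 probe set a gene, the one with the highest mean. The fit was tested on simulated data. The isotype pair was tested by exact permutation.

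The members, the 7 microtubule lists and 8 marker lists were chosen with earlier results of these data known. Every member probe set was named, with the 5 genes most correlated with it and, per microtubule list, the 2 highest and the 2 lowest; other names were chosen after their values were seen. Alternatives were the replicate letter as a fixed or random block (correlation 0.447), quantile normalization, both together, a pseudocount of 16, no filter, a block for the spike-in set and leaving out each array.

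The letters were checked as pairs by correlating deviations from the group means of same-letter arrays. The correlations with control were 0.217 to 0.665 at 5, 30 and 60 min, and 0.502, -0.299 and 0.311 for A, B and C at 90 min. Every same-letter correlation with control but that of 90 min B was above 0.1.

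The marker lists whose counts are not in the results gave these counts of genes lower after irradiation by the estimated mean. Hemocyte markers were lower in 1 of 7 (4 of 7 without control C), follicle cell and ovary markers in 3 of 5, testis markers in 1 of 2, and genes expressed at cellularization in 5 of 7. Of all genes 46.9% were lower.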

Additional observations from a re-analysis of the deposited data

How the results depend on the processing

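In each contrast against control, in the slope and among the 5 groups, 0 probe sets passed under every alternative, with 1 exception: the replicate block with quantile normalization called 19 in the mean of the irradiated groups, none of them among the 6 tubulins. In that contrast 404 probe sets had an unadjusted p under 0.05 (limma). With the replicate block alone the adjusted p was 0.288 for alphaTub67C, 0.289 for gammaTub37C and 0.174 for alphaTub84D, and the block changed no call. The count differing among letters was 5450, from 4323 to 6279 with 1 array left out and 703 with a block for the spike-in set, which overlaps with the letter.

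The difference of alphaTub67C in the mean was -2.88 to -1.21 with 1 array left out. Without control A, control C and 90 min B it reversed to 0.17. Under the same setting alphaTub67C was 0.0206 at 5 min and 0.77 at 90 min, and gammaTub37C 0.15 at 90 min. At 90 min alphaTub67C was -1.64 to 0.0285 with 1 array left out. The alphaTub67C minus alphaTub84D difference was -4.22 to -1.64, and missed the threshold without control A (-2.27) or control C. The cause was not tested. The microtubule count stayed between 43 and 57. The pairs with alphaTub84B or gammaTub23C could not be run, nor the mean over probe sets, since each gene had 1.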
